A study of Mus musculus with 18 samples.

Results

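The mRNAs of the heat shock transcription factors HSF1 and HSF2 and of their binding partner HSBP1 were followed in mouse fibroblasts exposed to heat or to a drug that stresses the endoplasmic reticulum (ER). The members were the 3 genes Hsf1, Hsf2 and Hsbp1, found by gene symbol among the 20207 genes listed in each of the 18 samples. All 3 were listed once in every sample, and all 3 passed the filter of at least 1 read in every sample that 12731 genes passed. The question was whether the mRNA of these regulators changed when their target genes did.

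HSF1 is the main activator of the heat shock response of mammalian cells. It is held as an inactive monomer, partly through binding to chaperones, and on heat it forms trimers that bind heat shock elements, which are inverted repeats of a short GAA unit, and switch on chaperone genes. HSF2 binds the same elements, can form mixed trimers with HSF1 and is regulated to a large extent by its own abundance. HSBP1 is a small coiled-coil protein that binds the trimerization region of HSF1 and has been described as a negative regulator of its activity.

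The cells were NIH3T3, an immortalized mouse fibroblast line, that stably carried DD-sfGFP, a destabilizing domain fused to superfolder green fluorescent protein. All 6 groups carried this reporter, came from a population sorted for high fluorescence, and were kept with Shield-1 (S1), the ligand that keeps the domain folded. The control group was collected at 0 min with no stress. The heat shock (HS) groups had been at the raised temperature for 45 or 135 min, and the tunicamycin (Tun) groups had been treated for 45, 135 or 405 min with this inhibitor of N-linked glycosylation, which causes ER stress. No 405 min sample of HS was analysed here. Each group had 3 samples, whose labels give replicate numbers but do not say whether they came from separate cultures, so p-values measure the spread between these samples, which may be technical. As RNA was taken from whole cultures, a change in every cell and a larger change in some cells cannot be told apart.

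Library totals ranged from 33415592 to 66478268 reads on genes. All 8 fibroblast markers, Col1a1 and Vim among them, were at 10.2 RPKM or higher in every sample, whereas the 5 markers of epithelial, blood and endothelial cells reached at most 0.0999 RPKM. RPKM is the authors' read count scaled by gene length and by library total. Levels per sample of 1 gene are given as CPM, read counts scaled to a common library total with TMM factors over all 18 libraries. Adjusted p is that of the edgeR quasi-likelihood test with Benjamini-Hochberg adjustment over 12731 genes, and a gene that rose, fell or was called had a value under 0.05. Replicates differed more than sampling noise allows in all 18 pairs within groups (chi-square per degree of freedom over 10922 genes, 16.4 to 911), so none was treated as a duplicate. The libraries also differed in how abundance followed the GC content of the transcripts, and this trend is described below because it moved with the members.

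In the mm9 build, Hsf1 lay at chr15:76307875-76331402, Hsf2 at chr10:57206191-57232949 and Hsbp1 at chr8:121868438-121872829. None of them overlapped another listed gene. Between Hsf1 and Bop1, which GENCODE places on the opposite strand, lay 175 bases. Whether reads were counted by strand is not given in the sources used here. The members differed in transcript GC content, which was 57.8% for Hsf1, 41.1% for Hsf2 and 47.1% for Hsbp1. Of the tested genes with a GC value, 87.6% had a lower value than Hsf1, 6.66% a lower value than Hsf2 and 31.8% a lower value than Hsbp1.

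The promoter sequences are shown to set the regulators beside 2 strong targets. RefSeq windows of 300 bases, from 250 before to 50 after an annotated start (GRCm38.p6), were searched for the core of a heat shock element, written as GAANNTTC or TTCNNGAA. Each of these strings is its own reverse complement, so both strands were covered, and overlapping matches were all counted. Such a match was present in 15.1% of the 32851 windows. The table held windows for 2 of the 3 members, Hsf2 and Hsbp1, and neither window held a match. Of the 26 heat shock targets, 21 had a window and 13 of these held a match in at least 1 of their windows, against 17.0% of the 27025 genes in the table. Capitals mark the matches in the sequences below, which are given on the strand of the gene for Hsf2 at chr10:57486135-57486434 (plus), Hsbp1 at chr8:119344288-119344587 (plus), Hspa1b at chr17:34959189-34959488 (minus) and Hspb1 at chr5:135887669-135887968 (plus).
Hsf2: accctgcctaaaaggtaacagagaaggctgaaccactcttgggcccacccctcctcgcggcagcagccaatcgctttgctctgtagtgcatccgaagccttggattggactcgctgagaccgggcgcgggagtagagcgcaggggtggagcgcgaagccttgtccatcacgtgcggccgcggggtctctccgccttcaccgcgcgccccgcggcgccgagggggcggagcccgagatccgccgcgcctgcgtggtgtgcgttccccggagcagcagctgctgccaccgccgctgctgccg
Hsbp1: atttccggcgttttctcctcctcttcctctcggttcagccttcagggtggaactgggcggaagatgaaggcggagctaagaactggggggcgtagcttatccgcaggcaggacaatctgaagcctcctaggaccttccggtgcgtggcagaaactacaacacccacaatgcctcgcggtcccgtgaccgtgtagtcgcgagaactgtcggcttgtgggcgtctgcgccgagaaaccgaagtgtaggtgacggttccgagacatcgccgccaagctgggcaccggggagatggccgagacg
Hspa1b: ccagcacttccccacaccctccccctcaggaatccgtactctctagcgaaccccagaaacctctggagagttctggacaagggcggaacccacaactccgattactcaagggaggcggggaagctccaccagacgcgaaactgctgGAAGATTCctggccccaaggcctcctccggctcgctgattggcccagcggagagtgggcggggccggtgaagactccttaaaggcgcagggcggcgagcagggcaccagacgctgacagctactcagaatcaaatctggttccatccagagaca
Hspb1: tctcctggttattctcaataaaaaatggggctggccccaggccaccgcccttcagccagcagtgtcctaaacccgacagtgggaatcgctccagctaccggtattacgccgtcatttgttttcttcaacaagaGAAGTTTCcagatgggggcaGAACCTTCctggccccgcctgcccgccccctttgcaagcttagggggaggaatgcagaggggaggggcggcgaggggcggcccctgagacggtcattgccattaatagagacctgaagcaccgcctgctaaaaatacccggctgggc
Hspa1b, which encodes an inducible HSP70, held 1 match, and Hspb1, which encodes the small chaperone HSP25, held 2. A match is a description of letters in a window, and the absence of one says only that these letters were not found there.

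**Figure D1:**
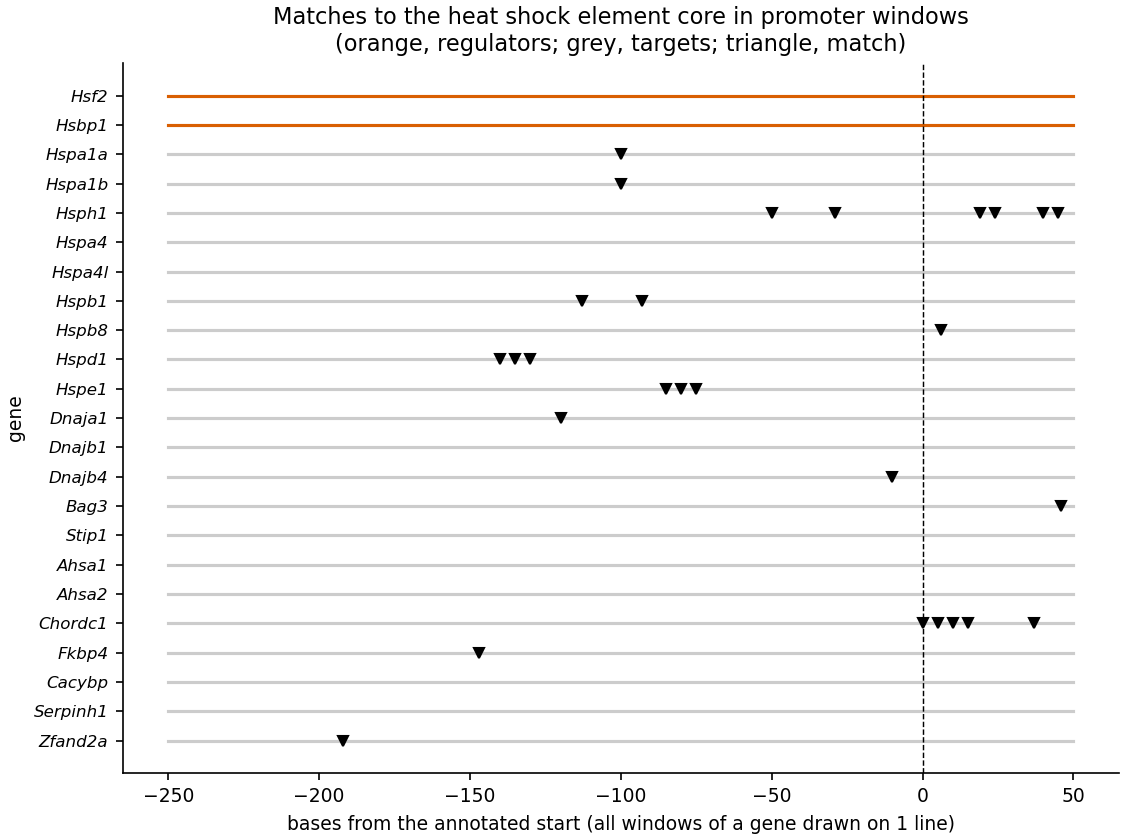
Positions of heat shock element cores in promoter windows, as distance in bases from the annotated start (x axis) for the 2 members and 21 targets with a window (y axis); triangles are the centres of matches, and all windows of a gene are drawn on 1 line. The lines of Hsf2 and Hsbp1 hold no triangle, and those of 13 targets hold at least 1.

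In unstressed cells, Hsf1 and Hsbp1 were abundant mRNAs and Hsf2 was a scarce one. On the RPKM scale, which allows levels to be compared between genes, the control level was 43.8 ± 3.31 for Hsf1, 3.09 ± 0.654 for Hsf2 and 64.4 ± 7.09 for Hsbp1 (mean ± SD, n = 3). These levels were above those of 88.1%, 35.4% and 92.2% of the tested genes. Over all 18 samples Hsf1 lay between 37.4 and 76.4 RPKM, Hsf2 between 0.807 and 4.198 RPKM and Hsbp1 between 23.6 and 72.5 RPKM, so the ranges of Hsf1 and Hsf2 did not meet. Read counts ran from 4148 to 10940 for Hsf1, from 142 to 824 for Hsf2 and from 1482 to 5688 for Hsbp1.

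The other genes of the family were at low levels. Hsf4, which encodes a factor known for its part in lens development, had 168 to 488 reads per sample and 2.06 to 3.85 RPKM, and thus lay close to Hsf2. Hsf5 had 1 to 11 reads. Hsfy2 had 0 reads in 17 of 18 samples and 1 read in the other, where a count of 0 allows up to 3 reads. Hsf3 and Hsbp1l1 were not analysed here. Among these genes Hsf4 rose at Tun 405 min, from 4.07 ± 0.525 CPM in control to 6.47 ± 0.977 CPM with TMM factors of that comparison alone (log2 fold change 0.67, SE 0.181, adjusted p = 0.0166). That call was lost without any 1 of replicates 2 and 3 of either group (adjusted p = 0.0522 to 0.0838). Hsf5 also passed the test there, in the lower direction (adjusted p = 0.0402), on 4, 11 and 4 reads in control against 4, 1 and 2 reads, which is too near the floor of 3 reads for a fold change to be read.

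Hsf1 mRNA rose in a single comparison with control, that with Tun 405 min. Hsf1 was at 117, 99.4 and 94.9 CPM in control replicates 1, 2 and 3. At Tun 405 min it was at 173, 193 and 189 CPM, and every sample lay above every control sample. The log2 fold change was 0.85 (SE 0.131, 95% interval 0.55 to 1.15), a fold of 1.81 (adjusted p = 0.00125). In that comparison 23.3% of all tested genes were called higher and 23.5% lower, so that a call was common. The Hsf1 call held under all 17 alternative settings, with log2 fold changes from 0.71 to 0.96 and adjusted p from 1.9e-07 to 0.0194.

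Under HS, when HSF1 protein is known to be activated, no change of Hsf1 mRNA was detectable beyond the spread of replicates. At HS 45 min Hsf1 was at 167, 181 and 94.99 CPM, so that replicates 1 and 2 lay above all control samples and replicate 3 lay at the level of the lowest one. At HS 135 min it was at 89.3, 169 and 139 CPM, and replicate 1 lay below all control samples. The log2 fold change was 0.51 at HS 45 min (SE 0.277, 95% interval -0.13 to 1.15, adjusted p = 0.295) and 0.35 at HS 135 min (SE 0.261, 95% interval -0.25 to 0.95, adjusted p = 0.388). Increases up to a log2 value of 1.15 at the earlier and 0.95 at the later time were therefore within the intervals. In these comparisons 0% of all tested genes were called in either direction at HS 45 min, while 4.75% were called higher and 2.64% lower at HS 135 min. At HS 45 min, 1568 genes were higher and 912 lower at an unadjusted p under 0.05. Leaving out replicate 3 of HS 45 min changed the outcome for Hsf1. Without that replicate the log2 fold change was 0.75 (adjusted p = 0.0109), in a fit that called 2737 of all genes higher and 3049 lower. The GC trend of the libraries, described below, moved with Hsf1, and its part in this call was not tested. With a GC offset and all samples kept, the Hsf1 value at HS 45 min was -0.09.

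Earlier under tunicamycin the mean of Hsf1 lay nearer to control than it did at Tun 405 min. It was at 105, 106 and 127 CPM at Tun 45 min and at 176, 116 and 120 CPM at Tun 135 min. The Tun 45 min samples overlapped with control, and at Tun 135 min replicate 1 stood apart from the other 2. The log2 fold changes were 0.13 (SE 0.136, adjusted p = 0.583) and 0.41 (SE 0.202, adjusted p = 0.315). All-gene calls were 4.01% higher and 2.17% lower at Tun 45 min, and 0.126% higher and 0.00785% lower at Tun 135 min, where a fit that paired samples by replicate number (replicate block) called 0 in either direction and no member. Between Tun 135 and 405 min Hsf1 had a log2 fold change of 0.41 (SE 0.183, adjusted p = 0.106), in a comparison where 21.4% of genes were called higher and 22.4% lower. Without Tun 135 min replicate 1 it was 0.63 (adjusted p = 0.000307). Ordered by mean, Hsf1 was highest at Tun 405 min (185 ± 10.8 CPM), followed by HS 45 min (148 ± 46.2), Tun 135 min (137 ± 33.6), HS 135 min (132 ± 40.1), Tun 45 min (113 ± 12.1) and control (104 ± 11.8), and the ranges of every pair of neighbours in this order overlapped.

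Hsf2 mRNA was not called in any of the 10 comparisons. It was at 7.48, 10.5 and 10.4 CPM in control, at 6.91, 5.27 and 8.96 CPM at HS 45 min and at 13.03, 3.15 and 9.44 CPM at HS 135 min. The HS 135 min group thus held both the highest and the lowest Hsf2 value of the series, 4.14-fold apart. At Tun 45, 135 and 405 min it was at 10.6, 10.2 and 12.0 CPM, at 6.75, 8.42 and 10.1 CPM and at 12.2, 10.5 and 10.5 CPM. The log2 fold change against control was -0.42 at HS 45 min (95% interval -1.12 to 0.27, adjusted p = 0.381) and -0.15 at HS 135 min (95% interval -1.24 to 0.95, adjusted p = 0.857). Under tunicamycin it was 0.22 at 45 min (adjusted p = 0.487), -0.15 at 135 min (adjusted p = 0.781) and 0.24 at 405 min (95% interval -0.15 to 0.64, adjusted p = 0.270). Changes inside the interval at HS 135 min were not detectable with this spread between replicates. Group means ran from 7.05 ± 1.85 CPM at HS 45 min to 11.04 ± 0.995 CPM at Tun 405 min, and neighbours in this order overlapped throughout.

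Hsbp1 mRNA was called in none of the comparisons with control, although in 3 groups all samples lay below the control samples. It was at 87.8, 79.6 and 96.1 CPM in control. It was at 41.9, 65.1 and 69.6 CPM at HS 45 min, at 74.0, 57.7 and 48.1 CPM at Tun 45 min and at 35.9, 58.0 and 62.2 CPM at Tun 135 min. All 9 of these samples lay below the lowest control sample. The log2 fold changes were -0.58 at HS 45 min (95% interval -1.15 to -0.01, adjusted p = 0.254), -0.53 at Tun 45 min (95% interval -0.96 to -0.10, adjusted p = 0.128) and -0.73 at Tun 135 min (95% interval -1.28 to -0.19, adjusted p = 0.181). None passed the threshold, and the 3 comparisons share the control samples. Over all tested genes 0%, 2.17% and 0.00785% were called lower in these comparisons. The share of all genes whose samples did not overlap was not computed, so how unusual this pattern was is not known. Without replicate 3 of HS 45 min the value there was -0.72 (adjusted p = 0.0373).

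At the last time of each stress the Hsbp1 samples overlapped with control. It was at 88.9, 71.1 and 100.03 CPM at HS 135 min (log2 fold change -0.02, 95% interval -0.49 to 0.46, adjusted p = 0.960) and at 85.7, 85.5 and 86.4 CPM at Tun 405 min (log2 fold change -0.01, 95% interval -0.28 to 0.26, adjusted p = 0.949). Between Tun 135 and 405 min Hsbp1 rose, with a log2 fold change of 0.70 (SE 0.207, 95% interval 0.22 to 1.18, a fold of 1.63, adjusted p = 0.0274). A call was common in that comparison, where 21.4% of all tested genes were called higher and 22.4% lower. All 3 later Hsbp1 samples lay above all 3 earlier ones. The Hsbp1 call was lost without any 1 of the Tun 405 min replicates (adjusted p = 0.0693 to 0.0849) and with totals not scaled by TMM (log2 fold change 0.61, adjusted p = 0.0819). Ordered by mean, control (87.8 ± 8.28 CPM), HS 135 min (86.7 ± 14.6) and Tun 405 min (85.9 ± 0.477) were followed by Tun 45 min (59.9 ± 13.1), HS 45 min (58.9 ± 14.9) and Tun 135 min (52.0 ± 14.1). The lowest sample of Tun 405 min lay above the highest of Tun 45 min, and the ranges of all other neighbours overlapped. The groups did not fall into separate sets, as HS 135 min replicate 2 (71.1 CPM) lay below Tun 45 min replicate 1 (74.0 CPM).

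**Figure D2:**
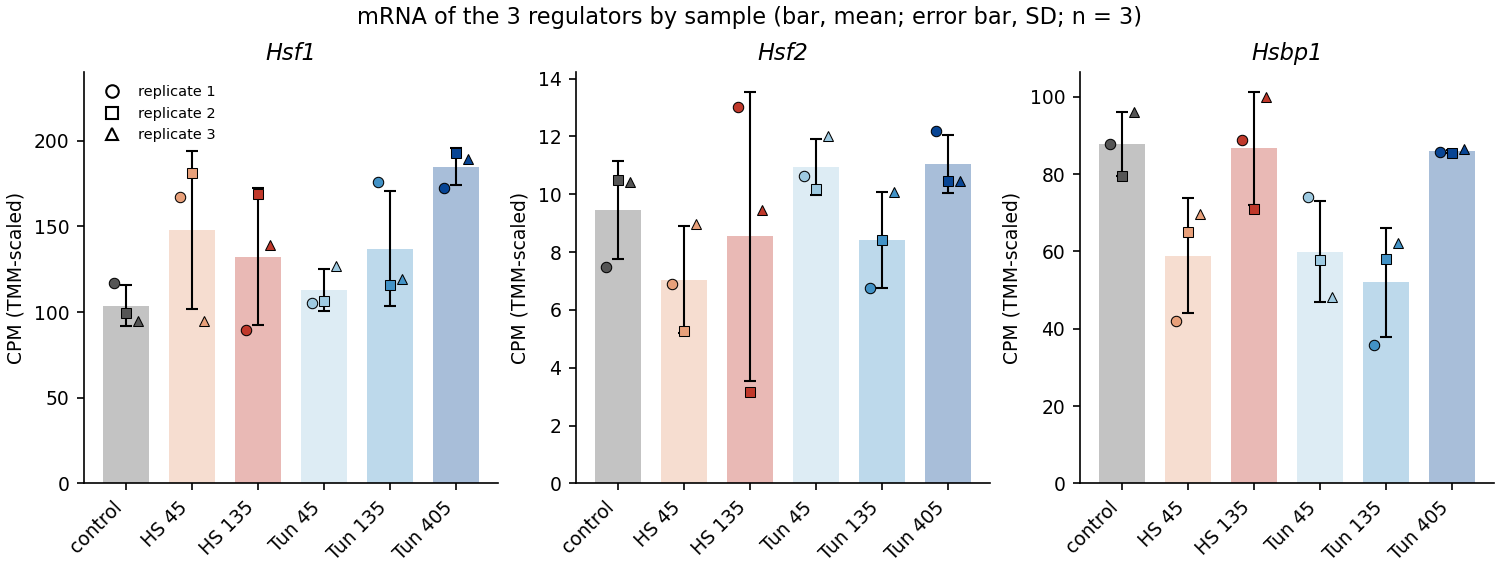
Level of Hsf1, Hsf2 and Hsbp1 in each of the 18 samples (y axis, TMM-scaled CPM) by group (x axis, stress and minutes); bars are means, error bars are SD with n = 3, and symbol shapes are replicate numbers. The Tun 405 min samples of Hsf1 lie at 173 to 193 CPM above all control samples, Hsf2 is most spread at HS 135 min, and Hsbp1 is below control in all samples of HS 45 min, Tun 45 min and Tun 135 min.

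The direct comparisons of the stresses at matched times called no member. At 45 min, HS minus Tun gave a log2 difference of 0.39 for Hsf1 (SE 0.259, 95% interval -0.23 to 1.01, adjusted p = 0.356), -0.64 for Hsf2 (SE 0.246, 95% interval -1.22 to -0.05, adjusted p = 0.191) and -0.03 for Hsbp1 (SE 0.267, 95% interval -0.67 to 0.60, adjusted p = 0.934). At 135 min it gave -0.07 for Hsf1 (95% interval -0.74 to 0.59, adjusted p = 0.922), -0.01 for Hsf2 (95% interval -1.16 to 1.14, adjusted p = 0.995) and 0.70 for Hsbp1 (95% interval 0.08 to 1.32, adjusted p = 0.198). All-gene calls were 0.0628% higher and 0.141% lower at 45 min, and 1.3% higher and 0.817% lower at 135 min. Without HS 45 min replicate 3, the earlier comparison called Hsf1 (0.63, adjusted p = 0.00563) and Hsf2 (-0.84, adjusted p = 0.0102), along with 3416 genes higher and 3671 lower over all. Within a stress, HS 135 against 45 min called 0% of all genes in either direction (658 higher and 823 lower at an unadjusted p under 0.05), and Tun 135 against 45 min called 0.118% higher and 0.173% lower, with no member among them.

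At HS 135 min many targets of the heat shock factors rose, and none of the 3 regulators was called. From 26 chaperone, co-chaperone and related genes known as heat shock targets, all of which were tested, 17 (65.4%) rose at HS 135 min and none fell. Of all tested genes, 4.75% were called higher there and 2.64% lower. The median log2 fold change of the 26 targets was 1.54, against -0.02 over all tested genes. The list was chosen with earlier results of these data known. Its count at HS 135 min was 4, 3 and 3 without control replicate 2, control replicate 3 and HS 135 min replicate 3, in fits that called 12, 10 and 11 of all genes higher. The 4 targets with the largest change were Hspb1, Hspa1b, Hspa1a and Bag3, the last of which encodes a co-chaperone of HSP70. Bag3 rose from 85.5, 103 and 91.9 CPM in control to 770, 2206 and 2073 CPM at HS 135 min (log2 fold change 4.17, SE 0.432, adjusted p = 0.00792). Hspa1b rose from 6.30, 5.50 and 5.47 CPM to 263, 1142 and 1214 CPM (log2 fold change 7.24, SE 0.651, adjusted p = 0.0058). Hspa1a, whose sequence is nearly the same as that of Hspa1b so that reads may be split between them, had a log2 fold change of 7.20 (SE 0.667). Hspb1 had 7, 1 and 6 reads in control and 767, 2560 and 3623 reads at HS 135 min (adjusted p = 0.008). The call of Bag3 was lost without any 1 of the same 3 samples (adjusted p = 0.0519 to 0.065), and that of Hspb1 without control replicate 3 or HS 135 min replicate 3 (adjusted p = 0.065 and 0.0519).

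At HS 45 min no target was called, as no gene was in that comparison, although 8 targets were higher and 1 lower at an unadjusted p under 0.05. By the exact test of edgeR and by DESeq2, 5 targets were called higher, where 251 and 386 of all genes were. Hspa1b was at 280, 223 and 46.0 CPM there, and replicate 3, in which Hsf1 was also lowest, was the lowest of the 3 (log2 fold change 4.99, SE 0.661, adjusted p = 0.192). Without that replicate 9 targets were called higher and 4 lower, in a fit that called 2737 of the 12731 tested genes higher and 3049 lower. At HS 45 min against Tun 45 min, 0.0628% of all tested genes were called higher. Among them were Hspa1b, Hspa1a and Dnajb1, which encodes an HSP40 co-chaperone, with log2 differences of 6.40, 6.28 and 2.62 (adjusted p = 0.0455, 0.0455 and 0.0207). Each of these 3 calls was lost in 5 of 6 fits with 1 sample left out (Hspa1b, adjusted p = 0.167 to 0.393) and held without HS 45 min replicate 3, and the replicate block called none. At 135 min 17 of 26 targets (65.4%) were higher in HS than in Tun, beside 1.3% of all tested genes. That count was 16 without HS 135 min replicate 1, 14 without replicate 2 and 0 without replicate 3, while it was 1, 0 and 0 without Tun 135 min replicates 1, 2 and 3, and 0 with the replicate block.

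Under tunicamycin more heat shock targets were called lower than higher at 2 times. At Tun 45 min 5 of 26 fell, namely Hspa1b (log2 fold change -1.40, SE 0.246, adjusted p = 0.0214), Hspa1a (-1.35), Dnajb1 (-0.96), Hspa8 (-0.85), which encodes the constitutive HSC70, and Cryab (-0.79), which encodes a small chaperone. The median over the 26 was -0.51 there, and 19.2% of them were called lower beside 2.17% of all tested genes. The count of 5 became 17 without control replicate 1 and 2 without Tun 45 min replicate 3, in fits that called 1108 and 69 of all genes lower. The target count was 0 without any 1 of the other 4 samples and 0 with the replicate block. At Tun 135 min none was called, with a median of -0.21 and with 1 higher and 5 lower at an unadjusted p under 0.05. DESeq2 called 1 lower there. Hspa1b was at 12.03, 3.88 and 3.53 CPM at Tun 135 min, with replicate 1 above and the others below control (log2 fold change 0.17, adjusted p = 0.869), and Bag3 was at 189, 128 and 115 CPM (0.63, SE 0.211, adjusted p = 0.187).

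At Tun 405 min, when Hsf1 mRNA was 1.81-fold higher, 12 of 26 targets (46.2%) fell, where 23.5% of all tested genes did, and 3 (11.5%) rose, where 23.3% did. The median log2 fold change of the 26 was -0.53. The 3 that rose were Serpinh1 (1.08, SE 0.146, adjusted p = 0.00067), which encodes the collagen chaperone HSP47 of the ER, Hspe1 (0.93, SE 0.215, adjusted p = 0.00837), which encodes the mitochondrial chaperonin HSP10, and Bag3 (0.83, SE 0.127, adjusted p = 0.00119). Hspa1b fell by 1.06 and Hspa8 by 1.56 on the log2 scale (SE 0.157 and 0.142, adjusted p = 0.00105 and 0.000111). With all 6 groups in 1 fit 6 targets were called lower, and Hspa1b (adjusted p = 0.206) and Bag3 (adjusted p = 0.0948) were not called. All 12 genes of a list of ER stress targets, such as Hspa5 and Ddit3, rose at Tun 405 min, beside 23.3% of all tested genes. Their median log2 fold change was 4.11. This list too was chosen with earlier results of these data known. At HS 135 min 8 of these 12 rose as well (66.7%, beside 4.75% of all tested genes), and at Tun 45 min 6 did (50%, beside 4.01%). The HS 135 min count was 2 without control replicate 2, control replicate 3 or HS 135 min replicate 3, and the Tun 45 min count ranged from 4 to 8 with 1 sample left out. At Tun 135 min, where 0.126% of all tested genes were called higher, the only one of the 12 called was Atf3, a stress-induced transcription factor (log2 fold change 2.19, SE 0.268, adjusted p = 0.0457). That call was lost with the replicate block (adjusted p = 0.0694), where the numbers behaved as pairs, and without any 1 sample other than Tun 135 min replicate 1 (adjusted p = 0.068 to 0.347).

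**Figure D3:**
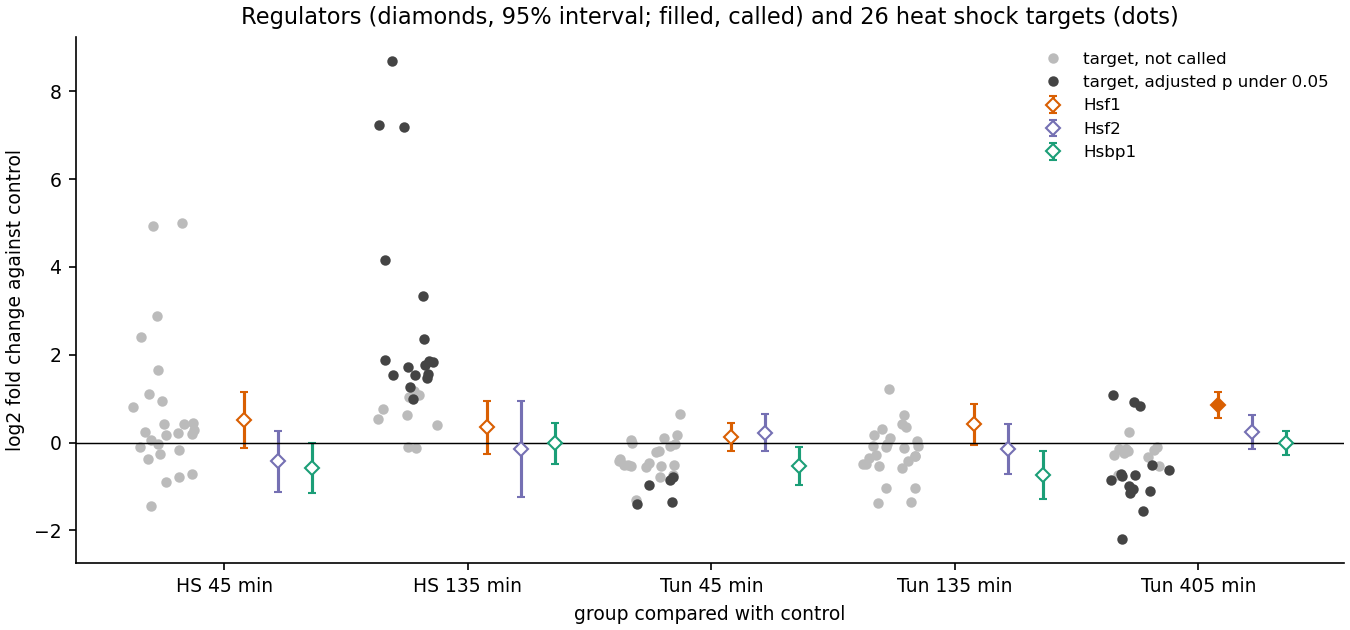
Log2 fold change against control (y axis) for the 3 members (diamonds with 95% interval, filled where adjusted p is under 0.05) and the 26 heat shock targets (dots, dark where called) in 5 comparisons (x axis), all sharing the control samples. Hspa1b reaches 7.24 at HS 135 min, below a dot for Hspb1 whose place rests on 7, 1 and 6 control reads, while the members stay between -0.73 and 0.85, and Hsf1 at Tun 405 min is the only filled diamond.

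Of 12 genes for proteins known to modify or bind HSF1, 1 was higher and 1 lower at HS 135 min. That was 8.33% in each direction, beside 4.75% higher and 2.64% lower of all tested genes. Crebbp, which encodes an acetyltransferase, rose with a log2 fold change of 1.84 (SE 0.431, adjusted p = 0.0436). Plk1, which encodes a mitotic kinase, fell by 0.89 (SE 0.193, adjusted p = 0.0358). It also fell by 0.77 at Tun 45 min (SE 0.113, adjusted p = 0.0123), as the only one of the 12 called there, where 2.17% of all tested genes were called lower. With 1 sample left out, the HS 135 min call was lost in 3 of 6 fits for Crebbp (without control replicate 2, control replicate 3 or HS 135 min replicate 3, adjusted p = 0.163 to 0.168) and in 4 for Plk1 (the same and control replicate 1, adjusted p = 0.0513 to 0.178). The Tun 45 min call of Plk1 was lost without control replicate 2 or 3 or Tun 45 min replicate 1 or 2 (adjusted p = 0.0539 to 0.102). At HS 45 min and Tun 135 min none was called, with 3 higher and 0 lower and with 2 higher and 1 lower at an unadjusted p under 0.05. Over the 12731 tested genes these unadjusted counts were 1568 higher and 912 lower at HS 45 min, and 1288 and 1081 at Tun 135 min. At Tun 405 min 2 rose and 2 fell, or 16.7% of the 12 in each direction, beside 23.3% and 23.5% of all tested genes. Daxx, which encodes a nuclear partner of HSF1, rose by a log2 value of 0.59 (SE 0.125, adjusted p = 0.00547), and Gsk3b, which encodes a kinase, by 0.46 (SE 0.121, adjusted p = 0.0149). Fbxw7, the substrate receptor of a ubiquitin ligase, fell by 0.87 (SE 0.192, adjusted p = 0.00696), and Mtor, a growth-signalling kinase, by 0.56 (SE 0.16, adjusted p = 0.0207). The call of Gsk3b was lost without any 1 of replicates 2 and 3 of control and Tun 405 min (adjusted p = 0.0536 to 0.0768), and that of Mtor without Tun 405 min replicate 2 or 3 (adjusted p = 0.0756 to 0.0854).

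The proportions of the members within a library were compared as ratios of their RPKM values, which do not depend on the scaling of libraries. The ratio of Hsbp1 to Hsf1 was 1.30, 1.39 and 1.75 in control. It was 0.860, 0.769 and 0.790 at Tun 405 min and 0.353, 0.867 and 0.901 at Tun 135 min. At HS 45 min it was 0.433, 0.623 and 1.27, and at Tun 45 min 1.22, 0.940 and 0.658. In these 4 groups every sample lay below every control sample, so that the exact two-sided permutation test of 3 against 3 gave 0.1, the smallest p it allows (0.25 after Benjamini-Hochberg adjustment over 15 ratio comparisons). All 15 share the control samples, so they are not independent, and the ratios reuse the member values given above. At HS 135 min the ratio was 1.72, 0.730 and 1.25 and overlapped with control (exact permutation p = 0.4). The GC trend of the libraries, described below, moved with both genes of this ratio, and its part in the ratio was not tested. The log2 ratio differed from control by -0.87 at Tun 405 min, -1.17 at Tun 135 min, -1.07 at HS 45 min and -0.69 at Tun 45 min.

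The ratio of Hsf2 to Hsf1 was 0.0491, 0.0811 and 0.0844 in control, so that the Hsf2 level was at most 0.0844 of the Hsf1 level per length. It was lowest, at 0.0144, in HS 135 min replicate 2 and highest, at 0.112, in replicate 1 of the same group. Against control the exact permutation p of this ratio was 0.2 or higher in all 5 groups. The ratio of Hsbp1 to Hsf2 was 26.4, 17.1 and 20.8 in control and was lower in every sample of Tun 45 min and of Tun 135 min (log2 differences -0.79 and -0.62, exact permutation p = 0.1 for each).

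The spread of the members between replicates moved with a GC trend of the libraries. For each library, the deviation of every gene from its group mean was set against the GC content of its transcript. The slope was 0.63 log2 units per 10 percentage points of GC in HS 135 min replicate 2, -0.52 in HS 135 min replicate 1 and -0.67 in HS 45 min replicate 3, and the other libraries lay between -0.23 and 0.44. Hsf1, a gene of high GC content, deviated in the direction of the slope in 17 of 18 libraries (Pearson's r across libraries 0.97, given as a description). Hsf2, a gene of low GC content, deviated in that direction in 4 of 18 (r = -0.82), and Hsbp1 in 6 of 18 (r = -0.65). The deviations of Hsf2 were 0.83 in HS 135 min replicate 1 and -1.20 in HS 135 min replicate 2, and those of Hsf1 in the same libraries were -0.52 and 0.40.

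**Figure D4:**
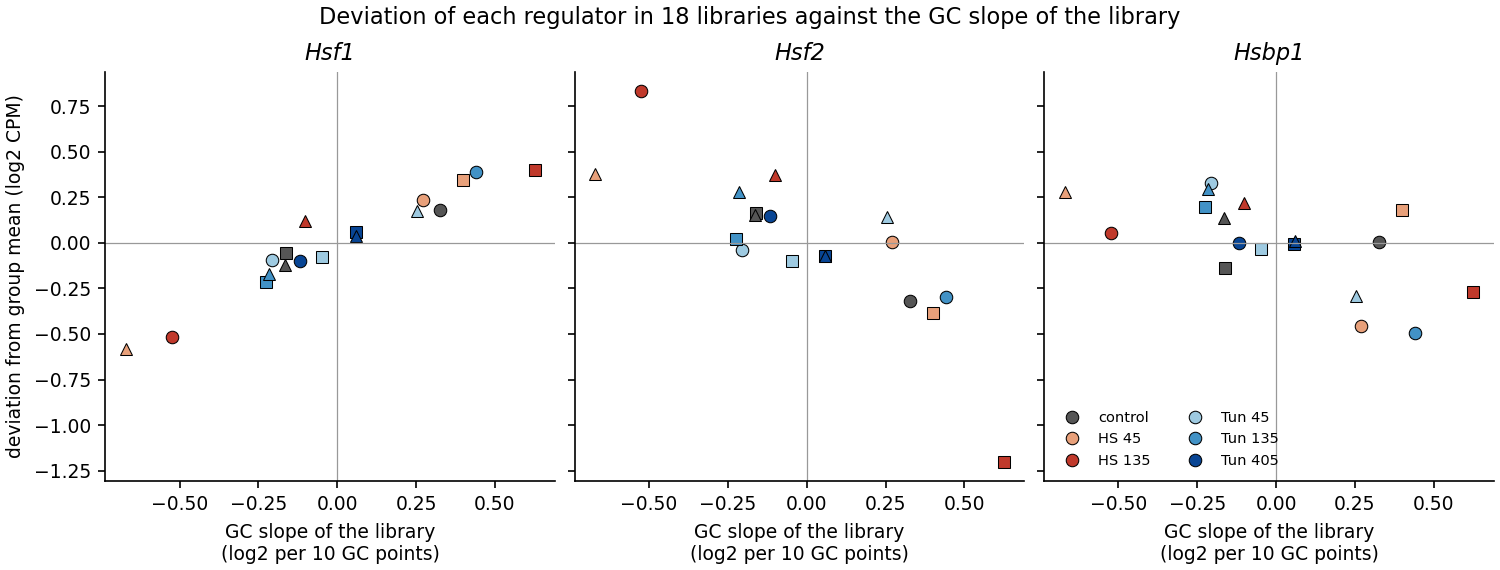
Deviation of Hsf1, Hsf2 and Hsbp1 from their group mean (y axis, log2 CPM) against the GC slope of each of the 18 libraries (x axis, log2 per 10 percentage points of GC); colours are groups and symbol shapes replicate numbers 1 (circle), 2 (square) and 3 (triangle). Hsf1 rises with the slope from -0.58 to 0.40, and Hsf2 falls with it from 0.83 to -1.20.

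Changes between groups also followed GC content, most so under HS. The Spearman correlation across genes between the change against control and GC content was 0.55 at HS 45 min, 0.40 at HS 135 min, 0.06 at Tun 45 min, 0.36 at Tun 135 min and 0.12 at Tun 405 min, and genes are not independent replicates. A fit with a GC offset, which takes out of each library its trend with GC content together with any real change that follows GC content, moved the members. Hsf1 became -0.09 at HS 45 min (95% interval -0.37 to 0.20) and -0.06 at HS 135 min (95% interval -0.38 to 0.26), which turned both directions. Hsf1 at Tun 405 min stayed called, at 0.71 (SE 0.0898, adjusted p = 0.000429). Hsf2 turned to 0.14, 0.16 and 0.11 at HS 45, HS 135 and Tun 135 min, all uncalled, and at Tun 405 min it was called higher, at 0.41 (SE 0.106, adjusted p = 0.012). Hsbp1 remained negative at HS 45 min (-0.28), Tun 45 min (-0.51) and Tun 135 min (-0.64), none of them called (adjusted p = 0.42, 0.0632 and 0.0859). The part of the GC trend in the members' values was not tested otherwise.

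**Figure D5:**
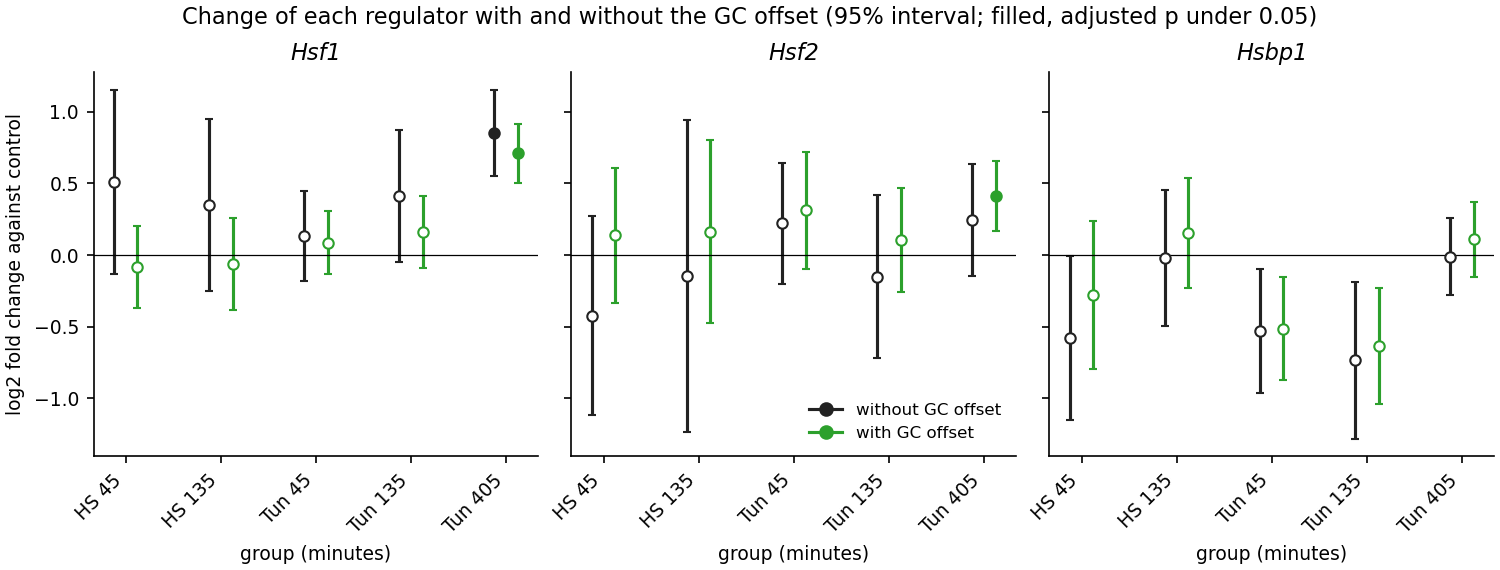
Log2 fold change of each member against control (y axis, with 95% interval) in 5 groups (x axis) without the GC offset (black) and with it (green); filled points have an adjusted p under 0.05. With the offset the Hsf1 values at HS 45 and 135 min lie at -0.09 and -0.06, and at Tun 405 min both fits place Hsf1 above 0.5.

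Across the 18 samples, the members did not share a pattern. Pearson's r of log2 CPM was -0.42 between Hsf1 and Hsf2, -0.22 between Hsf1 and Hsbp1 and 0.28 between Hsf2 and Hsbp1, as descriptions over samples that share groups and library composition. Among genes with a mean of at least 10 CPM (8278 compared for Hsf1), those most like Hsf1 were Myg1 (r = 0.98), Tmem143 (r = 0.97) and Pex14 (r = 0.97), whose transcripts had 54.2%, 58.0% and 58.7% GC. Those most like Hsf2 were Hspa9 (r = 0.95), Acadl (r = 0.93) and Grsf1 (r = 0.93), with 45.9%, 45.1% and 48.6% GC. Those most like Hsbp1 were Cd63 (r = 0.93), Zdhhc6 (r = 0.90) and 2210016F16Rik (r = 0.90), with 49.3%, 47.2% and 51.0% GC.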

How the data were processed

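RNA-seq libraries of 18 NIH3T3 samples in 6 groups of 3 were used. The authors deposited 1 file per sample with read counts per RefSeq gene, which are estimated counts that need not be whole, RPKM, an RMS-normalized RPKM signal and a Z-score. The submitters' processing notes name the mm9 build. Per the study's methods, alignment and counting on RefSeq genes were done on the DNAnexus platform, within which the aligner and counter are not given in the sources used here. The deposited signal and score were not tested. Counts were rounded, genes with at least 1 read in all 18 samples were kept, and each comparison of 3 against 3 samples was fitted with edgeR 4.0.16 (TMM, quasi-likelihood test, Benjamini-Hochberg, threshold 0.05) in R 4.3.3. SE and intervals came from the F statistic. At 33415592 to 66478268 reads on genes, the depth limited Hsf5 and Hspb1 but not the members. The fit was tested on simulated counts with no GC trend and the same dispersion for all genes, so that test does not cover the differences between libraries described above. Alternatives were DESeq2 1.42.0, limma 3.58.1 on log2(RPKM + 0.1), other filters, scalings and tests, a GC offset (lowess of each library on transcript GC content, available for 12432 tested genes), a replicate block and leaving out each sample. Replicate numbers behaved as pairs for Tun 135 min against control, where all 3 pairs had correlated deviations (0.29, 0.25 and 0.21), and in no other comparison. In both of these groups the GC slope set replicate 1 apart (0.33 in control and 0.44 at Tun 135 min, the others negative). Whether the numbers mark true pairs was not tested. Named genes were the members, the 4 heat shock targets with the largest change at HS 135 min, list genes called where at most 5 of a list were, and the 3 genes most like each member. Genes outside this rule (Hspa8 at Tun 405 min, Hsf5) were added after their values were seen. The members and lists were chosen with earlier results of these data known. Promoters were from RefSeq (GRCm38.p6).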

Additional observations from a re-analysis of the deposited data

Results flagged for a closer look

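Only the members and the 4 named heat shock targets were screened here, by the direct edgeR test of HS against Tun at the same time. All 4 targets were called. Over the whole list 17 of 26 were called higher in HS at 135 min, beside 1.3% of all tested genes. That count fell to 0 or 1 without any 1 Tun 135 min replicate or HS 135 min replicate 3. Hspa1b was higher in HS by log2 differences of 6.40 at 45 min and 7.05 at 135 min (adjusted p = 0.0455 and 0.0207), and Hspa1a by 6.28 and 6.84 (adjusted p = 0.0455 and 0.0191). At 135 min Bag3 was higher by 3.52 (adjusted p = 0.0233). Hspb1 was also called higher there (adjusted p = 0.0258), on 767, 2560 and 3623 reads in HS against 21, 10 and 1 in Tun, so that its fitted log2 difference of 7.47 depends on few reads and is no measure of the fold. All 3 samples of HS lay above all 3 of Tun in each of these 6 results. The 4 targets were chosen for the largest change at HS 135 min against control. The 135 min tests used those HS samples again, so a large difference there was favoured by the choice. With 1 sample left out, the 45 min calls of Hspa1b and Hspa1a were lost in 5 of 6 fits (adjusted p = 0.167 to 0.393 for both) and held without HS 45 min replicate 3. The 4 calls at 135 min were lost in 4 of 6 fits, without any 1 Tun 135 min replicate or HS 135 min replicate 3 (adjusted p = 0.0662 to 0.171 for Hspa1b, 0.0688 to 0.157 for Hspa1a, 0.0773 to 0.189 for Hspb1 and 0.0788 to 0.183 for Bag3). With the replicate block none was called (adjusted p = 0.412 for Hspa1b at 45 min and 0.328 at 135 min).

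Among the regulators, Hsf2 was flagged at 45 min only because all 3 HS samples lay below the control mean and all 3 Tun samples above it. The share of all genes with such a pattern was not computed, so how unusual it was is not known. The direct test of HS against Tun for Hsf2 did not pass the threshold (log2 difference -0.64, adjusted p = 0.191). With the GC offset, whose slope the Hsf2 values moved against, no call was made either.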

How the results depend on the processing

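The rise of Hsf1 at Tun 405 min kept its direction and its call under every alternative run. Of 330 member values under alternatives that kept all samples, 295 kept their direction and side of the threshold, and of 180 with 1 sample left out, 158 did. No reversal crossed the threshold, and the causes were not tested. With the GC offset alone and with the GC offset and replicate block, Hsf1 was -0.085 and -0.085 at HS 45 min, -0.064 and -0.069 at HS 135 min and -0.16 and -0.16 for HS against Tun at 45 min. Hsf2 was 0.14 and 0.12 at HS 45 min, 0.16 and 0.10 at HS 135 min, 0.11 and 0.10 at Tun 135 min and -0.012 and -0.067 between the HS times. Hsbp1 was 0.15 and 0.15 at HS 135 min, 0.11 and 0.12 at Tun 405 min and 0.25 and 0.23 for HS against Tun at 45 min. Both fits called Hsf2 at Tun 405 min (0.41 and 0.41) and Hsf1 between Tun 135 and 405 min (0.52 and 0.52), and limma on log2(RPKM + 0.1) also called the latter (0.43). Hsbp1 for HS against Tun at 135 min was called with the GC offset (0.78) and with all 6 groups in 1 fit (0.74), and the rise of Hsbp1 between Tun 135 and 405 min was not called with totals without TMM (0.61). Values near 0 also turned, namely Hsf2 for HS against Tun at 135 min with DESeq2 (0.013), its size factors (0.014), all 6 groups in 1 fit (0.024) and the GC offset (0.044), Hsbp1 for HS against Tun at 45 min with DESeq2 (0.015) and its size factors (0.015), and Hsbp1 at Tun 405 min with no filter (0.0044). At Tun 135 min Hspa1b turned with the replicate block (-0.047), the GC offset (-0.19), both (-0.28) and limma (-0.095), and Hspa1a with the GC offset (-0.023) and both (-0.0304).

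The count of targets called higher at HS 45 min was 5 by the edgeR exact test, 5 by DESeq2 and 6 with all 6 groups in 1 fit. At HS 135 min it was 0 with the replicate block, where the replicate numbers did not behave as pairs, and 16 with the block and GC offset. At Tun 45 min the count called lower was 11 by the exact test, 12 by DESeq2, 0 with the replicate block, 13 with the GC offset and 3 with both. At Tun 135 min it was 1 by the exact test, 1 by DESeq2, 1 with all groups in 1 fit and 1 with the GC offset, and at Tun 405 min 6 with all groups in 1 fit. The replicate block changed no call of a member. All-gene counts ranged over the alternatives from 0 to 2737 higher and 0 to 3049 lower at HS 45 min, from 0 to 1829 and 0 to 1414 at HS 135 min, from 21 to 1391 and 0 to 1108 at Tun 45 min, from 0 to 318 and 0 to 321 at Tun 135 min, and from 2008 to 4017 and 2049 to 3880 at Tun 405 min. Between the stresses they ranged from 0 to 3416 and 0 to 3671 at 45 min and from 0 to 998 and 0 to 773 at 135 min.

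With 1 sample left out, Hsf1 ranged from 0.34 to 0.75 at HS 45 min, from -0.45 to 0.0012 between the HS times, from 0.30 to 0.63 between Tun 135 and 405 min, from 0.21 to 0.63 for HS against Tun at 45 min and from -0.25 to 0.14 at 135 min. Hsf2 ranged from -0.59 to 0.28 at HS 135 min, from -0.19 to 0.65 between the HS times, and for HS against Tun from -0.84 to -0.47 at 45 min and from -0.46 to 0.43 at 135 min. Hsbp1 ranged from -0.72 to -0.38 at HS 45 min, from -0.13 to 0.14 at HS 135 min, from -0.099 to 0.037 at Tun 405 min, from -0.35 to 0.025 between Tun 45 and 135 min, from 0.49 to 0.85 between Tun 135 and 405 min and from -0.20 to 0.16 for HS against Tun at 45 min. Hspa1b ranged from -0.60 to 0.46 and Hspa1a from -0.17 to 0.66 at Tun 135 min, and Bag3 from -0.0021 to 0.14 at Tun 45 min. Target counts ranged from 0 to 9 higher and 0 to 4 lower at HS 45 min, from 3 to 19 higher at HS 135 min and from 0 to 17 lower at Tun 45 min.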
